A study of Mus musculus with 6 samples.

Results

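The genes described here encode the adhesion apparatus that fastens basal keratinocytes to the basement membrane under the epidermis. They are 9 of the 24354 genes in the deposited table and were taken by gene symbol: the integrin subunits Itga6, Itgb4, Itga3 and Itgb1, the laminin chains Lama3 and Lamb3, the transmembrane collagen Col17a1 and the plaque proteins Dst and Plec. Each symbol had 1 row, and all 9 passed the filter of a mean of at least 1 FPKM (a level of expression corrected for transcript length and for a library total). Expression was measured by RNA sequencing in 6 libraries, 3 from mouse epidermis homozygous for the activating kinase-domain variant H1047R of Pik3ca (Pik3caH1047R/H1047R, called mutant below) and 3 from wild type (WT). All came from embryos at day E18.5 with the strain label C57BL6, and all were made from cells sorted for high surface α6 integrin, the protein product of Itga6. The labels do not tell how the variant was introduced or in which cells it was active. Pik3ca itself was at 6.65 ± 0.602 FPKM in mutant and 9.04 ± 0.415 FPKM in WT libraries (SD, n = 3 each; limma adjusted p = 0.00433, a call lost when libraries were set to equal totals), and a gene-level FPKM does not show the variant.

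Hemidesmosomes are plaques at the base of the basal keratinocyte. In them the integrin α6β4 and the collagen XVII chain encoded by Col17a1 bind laminin-332 outside the cell, while plectin (Plec) and the epithelial form of dystonin (Dst, also called BP230) tie them to the keratin filaments inside. Laminin-332, which contains the chains of Lama3 and Lamb3, is also bound by the integrin α3β1, which sits in focal contacts linked to actin. Loss of single components of this apparatus causes skin blistering in humans and mice.

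All 9 genes were lower in mutant than in WT libraries. Each passed the test, a limma model on log2(FPKM + 1) with Benjamini-Hochberg adjustment over all 11385 genes tested and a threshold of 0.05. By the same test 22.8% of all genes tested were lower and 23.2% higher. The median log2 fold change of the 9 genes was -0.72, against 0.01 for all genes tested, and the 9 values ran between -1.16 for Itgb1 and -0.36 for Col17a1. In all 9 every mutant library was under every WT library, as in 26.9% of all genes tested (56.0% did not overlap in either direction). With 3 libraries against 3, the exact permutation test gave p = 0.1 for each of the 9, the smallest value that this design allows. At an adjusted p under 0.01, 7 of the 9 were lower, against 14.4% of all genes tested. Nothing in the labels ties the libraries to separate animals, so these p-values measure only the spread between libraries, which may be technical. In sorted bulk samples, fewer cells of a type and less RNA per cell cannot be told apart.

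The size of these differences depended on how libraries were set to the same scale. The deposited values summed to between 538627 and 651769 FPKM in mutant and between 656761 and 767148 FPKM in WT libraries, and scaling each library to the same total moved the median log2 fold change over all genes to 0.30. Under that scaling 6 of the 9 genes were still lower (7.35% of all genes tested were) and 0 were higher (47.3%; 86.5% of all calls were then higher, against 50.5% with the deposited values). The 6 were Itgb1, Dst, Lamb3, Itgb4, Itga3 and Lama3, and each of them was also lower under quantile normalization (21.2% of all genes tested were lower and 26.5% higher) and in all 17 alternatives. Itga6, Col17a1 and Plec lost the call under both scalings. When small RNAs (under 200 bases) were left out of the totals, the same count of 6 were lower and 0 higher, against 7.35% and 57.8% of all genes tested. Relative to the median gene, the median of the 9 was -0.73 with the deposited values and -0.70 with equal totals. Multiplying a library by a constant shifts nearly all genes alike, so these values could hardly differ and do not test the scaling.

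**Figure D1:**
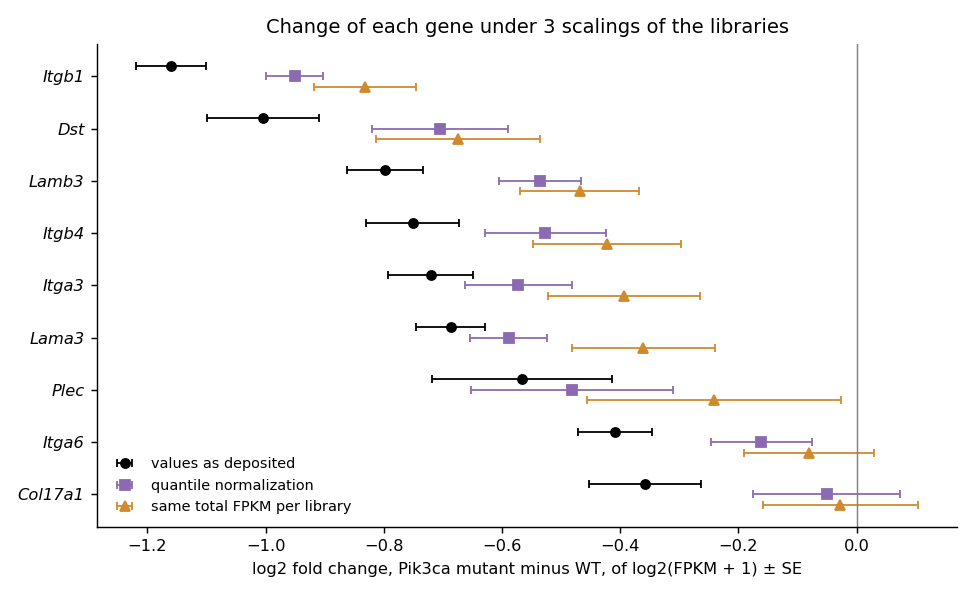
Log2 fold change (mutant minus WT, of log2(FPKM + 1)) of each of the 9 genes on the x axis, with the standard error of the limma model as bars, for the values as deposited, after quantile normalization and with each library scaled to the same total FPKM. With equal totals Itgb1 lies at -0.83 and Col17a1 at -0.03.

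Promoter sequences were at hand for 5 of the 9 genes, from RefSeq (build GRCm38.p6). Those of the gene with the largest fall (Itgb1), of a laminin chain (Lamb3) and of the gene with the smallest fall (Col17a1) are shown as the 250 bases before the annotated start, 5′ to 3′ on the gene's strand. Itgb1 is at chr8:128685404-128685653 (plus strand), Lamb3 at chr1:193301744-193301993 (plus strand) and Col17a1 at chr19:47692043-47692292 (minus strand). Capitals mark matches to 5 short motifs searched on both strands: AP-1 (TGANTCA), TEAD (GGAATG), FOXO (GTAAACA), ETS (CCGGAAG) and the GC box (GGGCGG).
Itgb1: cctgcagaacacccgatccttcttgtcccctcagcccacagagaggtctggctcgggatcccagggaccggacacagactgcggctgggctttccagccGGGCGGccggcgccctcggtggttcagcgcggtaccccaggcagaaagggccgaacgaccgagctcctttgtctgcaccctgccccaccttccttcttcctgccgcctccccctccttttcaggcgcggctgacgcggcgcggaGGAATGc
Lamb3: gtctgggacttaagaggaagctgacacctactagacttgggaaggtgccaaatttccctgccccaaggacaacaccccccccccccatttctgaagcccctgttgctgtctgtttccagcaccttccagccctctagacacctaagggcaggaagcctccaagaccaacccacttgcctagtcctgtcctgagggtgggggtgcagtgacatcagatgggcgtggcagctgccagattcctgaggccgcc
Col17a1: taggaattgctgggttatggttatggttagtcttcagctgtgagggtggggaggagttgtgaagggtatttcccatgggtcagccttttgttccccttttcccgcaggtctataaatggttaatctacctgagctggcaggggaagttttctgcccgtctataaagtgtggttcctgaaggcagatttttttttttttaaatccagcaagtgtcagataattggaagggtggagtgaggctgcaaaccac
The Itgb1 window held 1 GC box, a match found in 32.7% of 32851 promoter windows of this length, and 1 TEAD match, found in 12.6%. The Lamb3 and Col17a1 windows shown held 0 matches to the 5 motifs, and the window before another annotated start of Lamb3, at chr1:193301993-193302242 and not shown, held 1 TEAD match. The letters of AP-1 were found in 6.75% of all windows, those of FOXO in 3.17% and those of ETS in 6.91%. The 3 windows differed in base composition, with 68% G or C for Itgb1, 58.8% for Lamb3 and 46% for Col17a1. A match in such a window is a description of its letters.

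Both subunits of α6β4 were lower, with a smaller log2 fold change for α6 than for β4. Itga6 (chromosome 2, 71745616 to 71858416, plus strand, in the GENCODE annotation of GRCm38) encodes the integrin chain used to sort the cells. It was at 121, 125 and 122 FPKM in mutant libraries, against 157, 161 and 172 FPKM in WT libraries. The mutant values lay close together, and the highest of them was under the lowest WT value. Itga6 averaged 123 ± 2.13 FPKM in mutant and 163 ± 7.55 FPKM in WT libraries (SD, n = 3 each), which is 24.9% lower (log2 fold change -0.41, SE 0.06, limma adjusted p = 0.00146). With equal totals its log2 fold change was -0.08 (adjusted p = 0.546), and after quantile normalization -0.16 (adjusted p = 0.156). The table gives Itga6 a locus that it shares with 7 neighbouring genes, among them Pdk1 and Hat1.

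Itgb4 (chromosome 11, 115974709 to 116008412, plus strand) encodes the partner subunit that is specific to this receptor and whose long cytoplasmic tail binds plectin. It was at 96.9, 87.7 and 93.5 FPKM in mutant libraries, against 151, 147.5 and 172 FPKM in WT libraries. No mutant library came near the WT range, and WT replicate 3 was the highest of all, as it was for Itga6. Itgb4 averaged 92.7 ± 4.64 FPKM in mutant and 157 ± 13.3 FPKM in WT libraries, 40.9% lower (log2 fold change -0.75, SE 0.08, limma adjusted p = 0.000239). Up to 437 exon bases of Itgb4 overlap an annotated transcript on the other strand, as do up to 651 bases of Dst and 197 bases of Lama3, and the labels do not tell whether reads were counted by strand.

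The α3β1 pair was lower as well, and its β1 subunit showed the largest fall of the 9 genes. Itgb1 (chromosome 8, 128685654 to 128733200, plus strand) encodes the β1 chain, shared by α3β1 and by receptors for collagen and fibronectin. It was at 76.9, 79.7 and 81.1 FPKM in mutant libraries, against 184, 177 and 173.5 FPKM in WT libraries. The 3 libraries of each group were close to each other and the groups were far apart. Itgb1 averaged 79.2 ± 2.12 FPKM in mutant and 178 ± 5.32 FPKM in WT libraries, 55.5% lower (log2 fold change -1.16, SE 0.06, limma adjusted p = 9.6e-06). Of the 11385 genes tested, 1.99% had a lower log2 fold change.

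Itga3 (chromosome 11, 95044474 to 95076801, minus strand) encodes the laminin-binding partner of β1. It was at 62.5, 57.6 and 58.6 FPKM in mutant libraries, against 94.8, 94.4 and 107.6 FPKM in WT libraries. The groups did not overlap, and WT replicate 3 again stood highest. Itga3 averaged 59.6 ± 2.58 FPKM in mutant and 98.9 ± 7.48 FPKM in WT libraries, 39.8% lower (log2 fold change -0.72, SE 0.07, limma adjusted p = 0.000186). Its 95% interval ran between -0.89 and -0.55, apart from that of Itgb1, between -1.30 and -1.02.

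**Figure D2:**
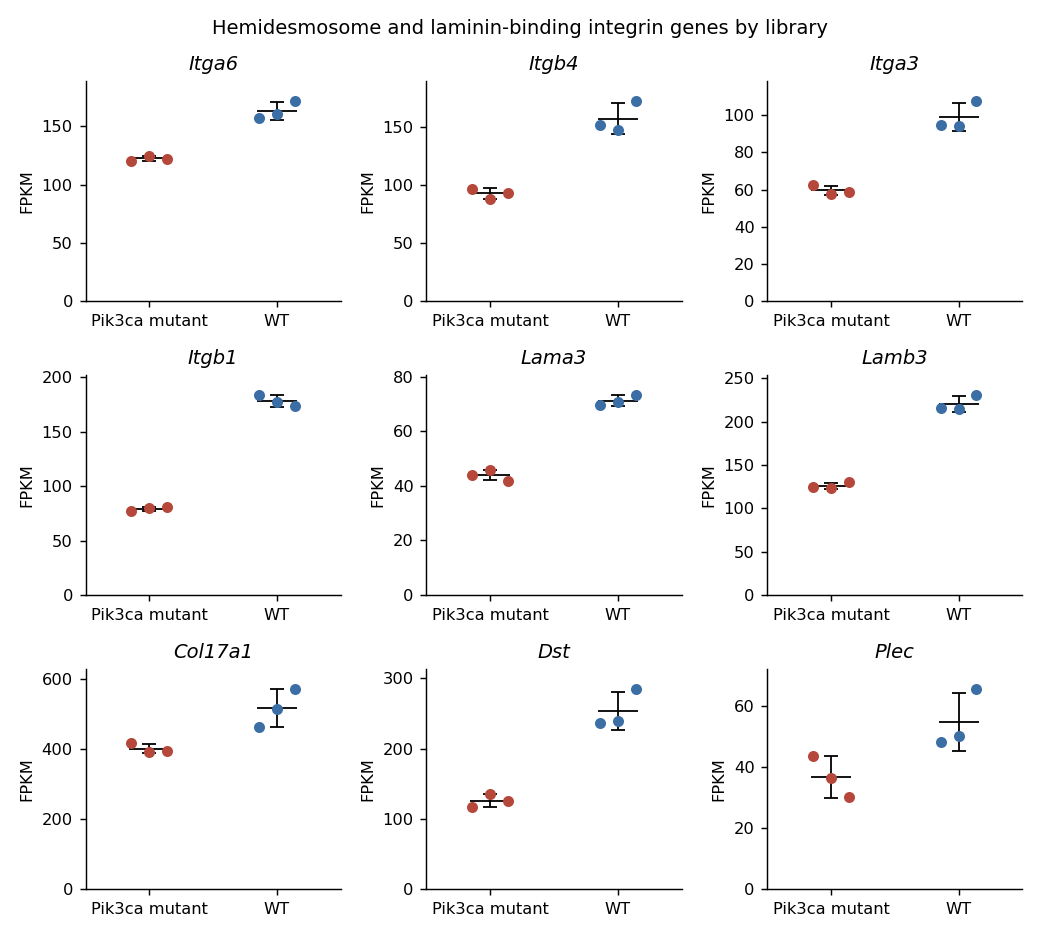
FPKM (y axis, from 0) of each of the 9 genes in the 3 mutant and the 3 WT libraries. Points are libraries, in the order of their replicate numbers, and black lines are means with SD. In each panel all mutant points lie under all WT points (for Plec, 43.7 FPKM in the highest mutant and 48.2 FPKM in the lowest WT library).

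Both ligand chains were lower as well. Lama3 (chromosome 18, 12333819 to 12583013, plus strand) encodes the α3 chain of laminin-332, which carries the integrin-binding domain. It was at 44.0, 45.7 and 41.9 FPKM in mutant libraries, against 69.5, 70.7 and 73.3 FPKM in WT libraries. The groups were tight and separate, with 43.9 ± 1.89 FPKM in mutant and 71.2 ± 1.93 FPKM in WT libraries (log2 fold change -0.69, SE 0.06, limma adjusted p = 8.3e-05). Lamb3 (chromosome 1, 193207699 to 193343878, plus strand; the table's locus starts at 193301994) encodes the β3 chain. It was at 124, 124 and 130.3 FPKM in mutant libraries, against 215, 214 and 231 FPKM in WT libraries. Its averages were 126 ± 3.59 FPKM in mutant and 220.2 ± 9.19 FPKM in WT libraries, 42.7% lower (log2 fold change -0.80, SE 0.06, limma adjusted p = 6.16e-05). The ratio of Lama3 to Lamb3 within a library was 0.348 ± 0.024 in mutants and 0.324 ± 0.006 in WT, and the groups overlapped (exact permutation p = 0.3).

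Col17a1 (chromosome 19, 47646344 to 47692094, minus strand), which encodes the transmembrane collagen of the hemidesmosome, was the most abundant of the 9 and changed least. It was at 418, 392 and 395 FPKM in mutant libraries, against 464, 513 and 573 FPKM in WT libraries. The WT libraries were spread widely, and the highest mutant library was not far under the lowest WT library. Col17a1 averaged 402 ± 14.1 FPKM in mutant and 517 ± 54.4 FPKM in WT libraries, 22.3% lower (log2 fold change -0.36, SE 0.10, limma adjusted p = 0.017). That call was lost without mutant replicate 2 (adjusted p = 0.0683) and without WT replicate 2 (adjusted p = 0.0576), with equal totals (log2 fold change -0.03, adjusted p = 0.868) and after quantile normalization (-0.05, adjusted p = 0.758). With totals equal apart from small RNAs its sign turned (log2 fold change 0.02, adjusted p = 0.906).

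The plaque proteins differed in how firmly they fell. Dst (chromosome 1, 33908225 to 34308661, plus strand) encodes the dystonin isoforms, of which the epithelial one belongs to the hemidesmosome and others to nerve and muscle. It was at 117, 135 and 126 FPKM in mutant libraries, against 237, 239 and 285 FPKM in WT libraries. The highest mutant library lay far under the lowest WT library, and WT replicate 3 stood highest. Dst averaged 126 ± 9.12 FPKM in mutant and 254 ± 27.6 FPKM in WT libraries, 50.4% lower (log2 fold change -1.004, SE 0.09, limma adjusted p = 0.000142). The value is for the gene as a whole: the table gives Dst 3 groups of start sites and Plec 11, and isoforms were not told apart.

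Plec (chromosome 15, 76170974 to 76232574, minus strand) encodes plectin, which links the β4 tail to keratin filaments. It was at 43.7, 36.2 and 30.2 FPKM in mutant libraries, against 48.2, 50.2 and 65.6 FPKM in WT libraries. It was the most variable of the 9, with an SD of 18.46% of the mean in mutant and 17.4% in WT libraries, where no other member exceeded 10.9%. Plec averaged 36.7 ± 6.77 FPKM in mutant and 54.7 ± 9.52 FPKM in WT libraries (log2 fold change -0.57, SE 0.15, limma adjusted p = 0.0179). The call was lost without mutant replicate 2 (adjusted p = 0.0542), with equal totals (log2 fold change -0.24, adjusted p = 0.353) and after quantile normalization (-0.48, adjusted p = 0.0504). Exons of Plec overlap those of Parp10 by up to 205 bases.

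The order of the 9 levels differed between the genotypes. In mutants the order of mean FPKM was Col17a1, Lamb3, Dst, Itga6, Itgb4, Itgb1, Itga3, Lama3 and Plec, and the ranges of Lamb3, Dst and Itga6, and of Lama3 and Plec, overlapped between neighbours. In WT it was Col17a1, Dst, Lamb3, Itgb1, Itga6, Itgb4, Itga3, Lama3 and Plec, and of these neighbours the ranges of Itga6 and Itgb4 overlapped. By these values Itgb1 stood above both subunits of α6β4 in WT libraries and under both in mutant libraries. The deposited intervals were wider than the replicate ranges. In mutants they spanned 48.5 to 198 FPKM for Itga6 and 47.9 to 112 FPKM for Itgb1. In WT they spanned 58.7 to 280 FPKM for Itga6 and 90.8 to 274 FPKM for Itgb1. The order between genes is therefore less certain than the replicate ranges show. By mean level over the 6 libraries the 9 genes stood above between 84.8% (Plec) and 98.4% (Col17a1) of all genes tested.

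Ratios between 2 genes of 1 library are not changed by multiplying a library by a constant, as equal totals do, whereas quantile normalization can change them. The ratio of Itga6 to Itgb1 was 1.57, 1.57 and 1.51 in mutant libraries, against 0.853, 0.908 and 0.989 in WT libraries. The deposited FPKM of Itga6 was thus above that of Itgb1 in every mutant library and under it in every WT library. The ratio was 1.69-fold higher in mutants. The deposited intervals of these genes, taken over each group, overlapped in mutants and in WT, so the order within a library is uncertain. The ratio of Itga6 to Itgb4 was 1.32 ± 0.09 in mutants and 1.04 ± 0.047 in WT, that of Itgb4 to Itgb1 was 1.17 ± 0.081 in mutants and 0.882 ± 0.095 in WT, and that of Itga3 to Itgb1 was 0.753 ± 0.052 in mutants and 0.556 ± 0.056 in WT. Col17a1 over Itgb4 was 4.34 ± 0.128 in mutants and 3.29 ± 0.207 in WT, and Dst over Plec was 3.52 ± 0.77 in mutants and 4.67 ± 0.288 in WT. The log2 ratio of Dst to Plec differed by -0.43, and by -0.24 without mutant replicate 1. Of 9 ratios computed, 7 did not overlap between the groups, each with an exact permutation p = 0.1 (0.129 after Benjamini-Hochberg adjustment over the 9), so none could pass a threshold of 0.05. Several of the 9 share a gene. The share of other gene pairs without overlap was not computed, and 56.0% of all genes tested did not overlap singly. The count of 7 therefore does not set these genes apart. The ratio of Col17a1 to Itga6 overlapped between the groups, at 3.28 ± 0.166 in mutants and 3.16 ± 0.193 in WT (exact permutation p = 0.5).

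**Figure D3:**
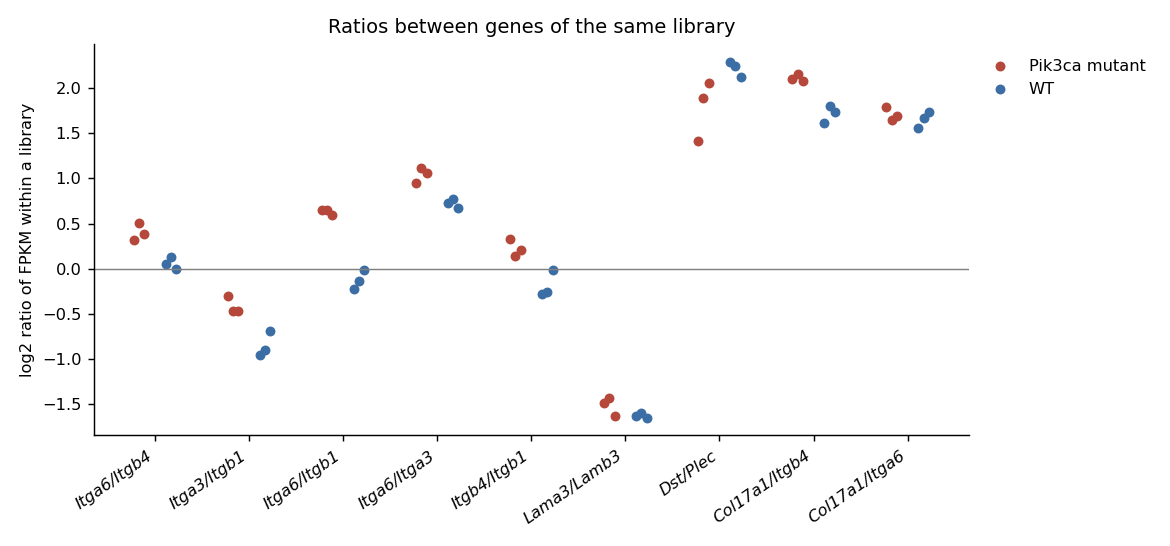
Log2 ratio of FPKM of 2 genes of the same library (y axis) for 9 gene pairs (x axis), with mutant libraries left of WT libraries. Points are libraries. Itga6/Itgb1 lies above 0 in the 3 mutant libraries and under 0 in the 3 WT libraries, and the groups of Lama3/Lamb3 and Col17a1/Itga6 overlap.

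The keratins of the basal cell gave a second reference within each library. Krt5 was at 11977 ± 919 FPKM in mutant and 12028 ± 155 FPKM in WT libraries (limma adjusted p = 0.976), and Krt14 was at 8453 ± 819 FPKM in mutant and 10194 ± 440 FPKM in WT libraries (limma adjusted p = 0.247). Krt14 was 17.1% lower in mutants and its groups did not overlap (highest mutant library 9369 FPKM, lowest WT library 9828 FPKM). Ratios to Krt14 carry that difference of the denominator. Relative to Krt5, all 9 genes were lower in mutants without overlap of the groups, as were 26.4% of all genes tested. Relative to Krt14, 9 were lower on average and 6 did not overlap (10.8% of all genes tested were lower without overlap), the exceptions being Itga6, Col17a1 and Plec. The log2 ratio of Itgb1 to Krt5 differed, mutant minus WT, by -1.16 and that to Krt14 by -0.90, and that of Itga6 by -0.40 (Krt5) and -0.14 (Krt14). The Krt14 value of Itga6 was -0.21 without mutant replicate 2 and -0.06 without mutant replicate 3. Each ratio without overlap had an exact permutation p = 0.1, the smallest possible.

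Markers fixed for the sorted cells and for others that use some of these genes were read beside these results. Of 4 basal keratinocyte markers, 0 were lower and 1, Krt15, was higher, a call lost without mutant replicate 2, WT replicate 1 or WT replicate 2 (adjusted p between 0.0565 and 0.0645), and the transcription factor Trp63 was at 206 ± 12.1 FPKM in mutant and 198 ± 13.3 FPKM in WT libraries. Of 4 suprabasal markers 2 were higher, Krt1 and Krt10, where 23.2% of all genes tested were higher and 22.8% lower. The list summed to between 11613 and 14221 FPKM in mutant and between 3774 and 4536 FPKM in WT libraries. Krt1 (5730 FPKM in mutants, 1489 FPKM in WT) and Krt10 (5899 FPKM in mutants, 1704 FPKM in WT) made up most of that sum. Krtdap did not pass (1018 FPKM in mutants, 928 FPKM in WT, limma adjusted p = 0.306). Sbsn did not pass either (122 FPKM in mutants, 137 FPKM in WT, limma adjusted p = 0.319). The summed level was lower in mutants for endothelial (6 markers, 4.31 to 6.41 FPKM in mutants, 7.70 to 10.9 FPKM in WT), Schwann cell (5 markers, 29.9 to 37.4 FPKM in mutants, 49.6 to 56.3 FPKM in WT) and skeletal muscle markers (6 markers, 5.28 to 5.64 FPKM in mutants, 9.93 to 16.98 FPKM in WT), with 1 of 1, 1 of 1 and 2 of 2 tested markers lower. Defining markers of these cells were low in every group: Pecam1 was at 0.442 FPKM in mutants and 0.766 FPKM in WT, and the largest contributions came from Egfl7 (4.64 FPKM in mutants, 7.12 FPKM in WT), Erbb3 (32.4 FPKM in mutants, 51.9 FPKM in WT) and Acta1 (2.90 FPKM in mutants, 9.07 FPKM in WT). Melanocyte markers summed to between 9.88 and 11.8 FPKM in mutants and 13.9 and 18.9 FPKM in WT (2 of 2 tested lower), immune markers to between 1.77 and 2.28 FPKM in mutants and 2.99 and 3.56 FPKM in WT (1 of 1 tested lower, Cd207 at 0 in every library), and fibroblast markers to between 303 and 337 FPKM in mutants and 369 and 501 FPKM in WT (1 of 5 tested lower). The part of these other cells in the falls of the 9 genes was not tested.

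Other receptors and ligands of the basement membrane showed where the 9 genes stood among related genes. The counts below stand beside 22.8% lower and 23.2% higher among all genes tested. Of 5 other laminin chains tested, 4 were lower and 0 higher (median log2 fold change -0.38). Lamb1 was at 15.2 ± 1.14 FPKM in mutant and 20.9 ± 1.72 FPKM in WT libraries, Lamb2 at 37.2 ± 1.95 in mutants and 48.4 ± 3.92 FPKM in WT and Lama4 at 1.30 ± 0.262 in mutants and 2.03 ± 0.397 FPKM in WT. Lama5 was lower by a log2 fold change of -0.38 (adjusted p = 0.0439), a call lost in 10 of 17 alternatives, among them leaving out mutant replicate 2 or 3 or WT replicate 2 or 3. With equal totals all 4 lost the call and 0 were lower, where 7.35% of all genes tested were lower. Lama4 also lost it without mutant replicate 2, mutant replicate 3 or WT replicate 1 (adjusted p between 0.0955 and 0.112), and the count of lower chains was 2 without mutant replicate 2 or 3. Of 7 other integrin subunits tested, 4 were lower and 1 higher. Itgb6 was at 4.94 ± 0.917 FPKM in mutant and 41.9 ± 2.70 FPKM in WT libraries, the fibronectin receptor subunit Itga5 at 10.4 ± 0.378 in mutants and 53.4 ± 2.42 FPKM in WT, and the collagen receptor subunit Itga2 at 5.54 ± 0.415 in mutants and 14.0 ± 0.817 FPKM in WT. These 3 were lower under all 4 scalings, whereas Itgav (log2 fold change -0.45) lost the call with equal totals. Itgb5, which pairs with αv, did not pass (63.6 FPKM in mutants, 60.8 FPKM in WT, adjusted p = 0.422), and the single higher subunit, Itga8 (1.82 FPKM in mutants, 0.975 FPKM in WT), lost the call in 7 of 16 alternatives, among them leaving out mutant replicate 1 or 2 or any 1 of the WT libraries (adjusted p between 0.051 and 0.118).

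Of 12 anchoring partners, 2 were lower and 1 higher (median log2 fold change -0.15), smaller shares than the 22.8% lower and 23.2% higher of all genes tested. Col7a1, the anchoring fibril collagen, was at 91.3 FPKM in mutants and 109.7 FPKM in WT (adjusted p = 0.245), and the tetraspanin Cd151, which binds both laminin-binding integrins, at 58.2 FPKM in mutants and 67.0 FPKM in WT (adjusted p = 0.0603). Klhl24, a ubiquitin ligase adaptor, fell to 10.2 ± 1.05 FPKM in mutants, against 21.4 ± 0.459 FPKM in WT, and the surface hyaluronidase Tmem2 fell to 4.79 ± 0.088 FPKM in mutants, against 6.66 ± 0.667 FPKM in WT, a call lost with equal totals. Fermt1, which encodes an integrin activator of the kindlin family, was higher at 16.2 ± 0.748 FPKM in mutants, against 11.7 ± 2.10 FPKM in WT (log2 fold change 0.45, adjusted p = 0.0144), and lost the call without mutant replicate 2 (adjusted p = 0.0542), which left 0 higher. Of 18 adaptors of β1 integrins tested, 10 were lower and 1, again Fermt1 with the same loss, was higher. Vinculin (Vcl) was at 31.7 ± 0.125 FPKM in mutants and 99.3 ± 5.06 FPKM in WT, zyxin (Zyx) at 47.8 ± 3.54 in mutants and 128 ± 9.55 FPKM in WT, Lims1 at 16.9 ± 0.599 in mutants and 32.5 ± 2.37 FPKM in WT and Parva at 16.6 ± 0.895 in mutants and 22.04 ± 0.825 FPKM in WT. Parva lost the call with equal totals, under which 3 adaptors were lower (Vcl, Zyx and Lims1), as were 7.35% of all genes tested. The kinases Ptk2 (adjusted p = 0.735) and Ilk (adjusted p = 0.26) did not pass.

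The plakin family, to which Dst and Plec belong, was split. Of its 5 other members tested 0 were lower and 3 higher. The desmosomal and envelope plakins were the higher ones: Ppl at 84.2 ± 9.51 FPKM in mutants and 47.0 ± 7.74 FPKM in WT (log2 fold change 0.83, adjusted p = 0.00147), Dsp at 477 ± 45.9 in mutants and 366 ± 37.1 FPKM in WT (0.38, adjusted p = 0.0214) and Evpl at 45.5 ± 5.89 in mutants and 35.9 ± 4.76 FPKM in WT (0.34, adjusted p = 0.0443). Dsp and Evpl each lost the call when mutant replicate 1, mutant replicate 2, WT replicate 1 or WT replicate 2 was left out (adjusted p between 0.0717 and 0.0769 for Dsp and between 0.0883 and 0.133 for Evpl), and the count of higher plakins was then 1. Of 7 other matrix receptors tested, 4 were lower and 2 higher. The laminin α5 receptor Bcam was at 353 ± 25.4 FPKM in mutants and 526.5 ± 1.15 FPKM in WT, the syndecan Sdc4 at 149 ± 4.51 in mutants and 261 ± 9.67 FPKM in WT and the collagen receptor Ddr1 at 72.5 ± 2.32 in mutants and 104 ± 3.65 FPKM in WT, whereas the syndecan Sdc1 was higher at 149.5 ± 6.78 FPKM in mutants, against 101.5 ± 1.83 FPKM in WT. The other receptor that was higher, dystroglycan (Dag1, 72.0 ± 2.74 FPKM in mutants and 58.4 ± 7.11 FPKM in WT), lost the call without mutant replicate 1 or 2 or WT replicate 1 or 2 (adjusted p between 0.0697 and 0.077), which left 1 higher. Ddr1 lost the call with equal totals, and Bcam, Sdc4 and Sdc1 kept it under all 4 scalings. Of 7 tetraspanins tested 5 were lower and 0 higher (Tspan4, Cd63, Cd9 and Cd81 with log2 fold changes of -0.53, -0.48, -0.39 and -0.30, and Tspan3 with -0.23, a call lost without mutant replicate 1 or 2 or WT replicate 1 or 2), but none of the 5 held under all 4 scalings. Without mutant replicate 2 or WT replicate 2, Cd9 lost the call (adjusted p = 0.0522 and adjusted p = 0.0506) and the count of lower tetraspanins was 3.

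**Figure D4:**
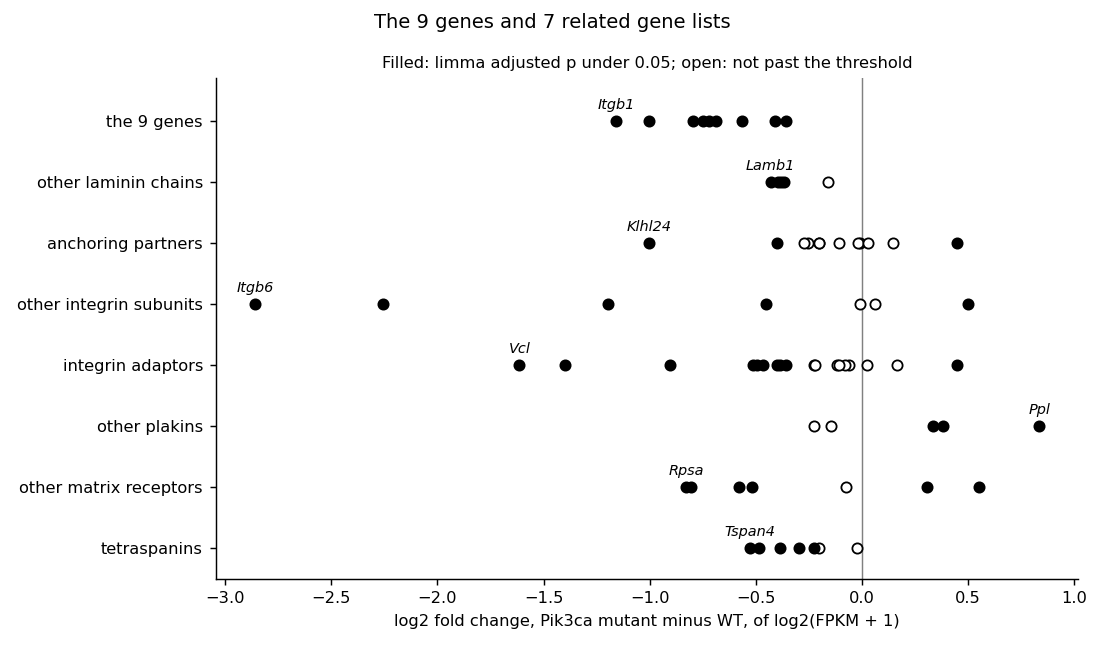
Log2 fold change (x axis, mutant minus WT, of log2(FPKM + 1), values as deposited) of the 9 genes and of the tested members of 7 related gene lists (rows). Filled points passed a limma adjusted p under 0.05, and the gene with the largest change of a row is named. The 9 genes lie between -1.16 and -0.36 and Itgb6 at -2.86, and the other plakins run up to 0.83 for Ppl.

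Profiles over the 6 libraries were compared as the root mean square distance between log2(FPKM + 1) values, each gene centred on its own mean. The profile nearest to Itgb4 among all genes tested was that of Itga3 (distance 0.026), and the reverse also held. Next came Pik3cb, which encodes another catalytic subunit of PI3K, for both (0.039 from Itgb4 and 0.033 from Itga3), followed by Mafk for Itgb4 (0.049) and Smurf1 for Itga3 (0.039). Lamb3 ranked 12th by distance from Itgb4 and Lama3 ranked 43rd from Itga3. The nearest to Itga6 were Ust (0.016), Dsg3 (0.022) and Mtmr11 (0.023), while its receptor partner Itgb4 ranked 3117th (distance 0.183). From Itgb4, the same distance gave Itga6 rank 684, since a rank depends on how many genes lie near the reference gene. The nearest to Itgb1 were Dhx32 (0.040), Myo1e (0.043) and Sgms2 (0.046), and those to Col17a1 were Fchsd2 (0.028), Gmip (0.033) and Sfxn3 (0.033), with Itga6 ranked 81st. These distances describe 6 libraries in 2 groups, so that genes with a like difference between the groups lie near each other.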

How the data were processed

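RNA sequencing values of 3 mutant and 3 WT libraries were used. The authors deposited FPKM for each gene in each library, each with an interval, per the file headers. These FPKM came from TopHat and Cufflinks, per the submitters' processing notes, which name the build mm9; no read counts are at hand, so depth is unknown and no interval from it is given, and neither tool versions nor the scaling between libraries are stated in the labels. The table's gene positions were checked against GENCODE M21 (GRCm38): 98.9% of 23315 symbols overlapped the gene of that name, so positions are given in GRCm38.

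The 9 genes, the 7 related lists (78 genes), the markers and the tests were chosen with earlier results of these data known. Limma 3.58.1 (R 4.3.3; empirical Bayes with a trend) was fitted to log2(FPKM + 1) of 11385 genes (mean FPKM of 1 or more) and tested on simulated data. Fold changes on this scale understate the change of low genes. Exact permutation tests over the 20 splits of 6 libraries were two-sided. Python 3.11.15, pandas 2.3.3 and scipy 1.17.1 were used. Genes named were the 9; of each related list, up to 4 passing the threshold by smallest p, then the highest FPKM up to 3; and the 3 nearest profiles of Itga6, Itgb4, Itgb1, Itga3 and Col17a1. Itga8, Itgb5, Dag1, Tspan3, Rpsa, Col7a1, Cd151, Ptk2 and Ilk, the last from the adaptor list, were named after their values were seen. Alternatives covered the pseudocount, filter, scaling, variance prior, library weights, a replicate block, leaving out each library and the threshold. A related gene and a marker are not reported here and were left out of the lists.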

Additional observations from a re-analysis of the deposited data

How the results depend on the processing

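Every log2 fold change of Itgb4, Itga3, Itgb1, Lama3, Lamb3 and Dst kept its direction and passed in all 17 alternatives. The calls of the other 3 genes were lost as follows, and the cause was not tested. After quantile normalization the log2 fold change was -0.16 for Itga6, -0.051 for Col17a1 and -0.48 for Plec. With equal totals it was -0.080 for Itga6, -0.027 for Col17a1 and -0.24 for Plec. With equal totals apart from small RNAs it was -0.035 (adjusted p = 0.756) for Itga6, 0.018 (reversed) for Col17a1 and -0.20 for Plec. Whether replicate numbers pair the libraries is unknown. The deviations of same-numbered libraries correlated at 0.127, 0.122 and -0.0073, and those of differently numbered libraries between -0.157 and 0.0619. The values 0.127 and 0.122 were the highest of all, so pairing cannot be settled here. With the replicate block 7 of the 9 genes were lower, where 16.8% of all genes tested were lower and 16.6% higher, and Col17a1 (-0.36, adjusted p = 0.0838) and Plec (-0.57, adjusted p = 0.0527) lost the call. When 1 library was left out, the number of the 9 that were lower ran between 7 and 9, the log2 fold change of Col17a1 between -0.43 and -0.28 and that of Plec between -0.70 and -0.43. It was 7 without mutant replicate 2 (17.2% of all genes tested lower, 16.9% higher) and 8 without WT replicate 2 (17.5% lower, 18.3% higher). The difference in the log2 ratio of Col17a1 to Krt14 ran between -0.19 and 0.0037, reversed without mutant replicate 3, and no other ratio changed sign. Leaving out 1 library also moved the differences in these log2 ratios by over 1.5 times: Dst to Plec, Lama3 to Lamb3, Col17a1 to Itga6, Itga6 to Krt14, Plec to Krt14 and Plec to Krt5.

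Counts of the related lists moved by more than 1.5 times in these cases. With equal totals, then with equal totals apart from small RNAs, lower calls were 0 and 0 for laminin chains, 1 and 1 for anchoring partners, 3 and 3 for adaptors and 0 and 0 for tetraspanins. Higher calls were 2 and 4 for anchoring partners, 2 and 2 for integrin subunits, 3 and 4 for adaptors and 1 and 2 for tetraspanins. These counts stand beside other shares of all genes tested, 7.35% lower under both scalings and 47.3%, then 57.8%, higher. With no filter, laminin chains had 2 lower, integrin subunits 0 higher and tetraspanins 1 higher. With a mean of at least 5 FPKM, integrin subunits had 0 higher. With library weights, anchoring partners had 4 lower and integrin subunits 2 higher. Of all calls, 49.4% were higher with no filter, 48.8% with a mean of at least 5 FPKM and 50.0% with library weights. The share of all genes tested that was called is not given for these settings, so the counts cannot be set against it. After quantile normalization tetraspanins had 2 lower, where 21.2% of all genes tested were lower. With the replicate block, integrin subunits had 0 higher, plakins 1 higher, matrix receptors 1 higher and tetraspanins 3 lower (16.6% of all genes tested were higher and 16.8% lower). At an adjusted p under 0.01, laminin chains had 2 lower, anchoring partners 0 higher, integrin subunits 0 higher, adaptors 0 higher, plakins 1 higher, matrix receptors 1 higher and tetraspanins 3 lower. At that threshold 14.4% of all genes tested were lower, and the share that was higher is not given. When 1 library was left out, laminin chains had 2 to 4 lower, anchoring partners 0 to 1 higher, integrin subunits 0 to 1 higher, adaptors 0 to 1 higher, plakins 1 to 3 higher, matrix receptors 1 to 2 higher and tetraspanins 3 to 6 lower. Shares of all genes tested are given, above, only for leaving out mutant replicate 2 or WT replicate 2. With no read counts, the precision that depth gives each value is unknown.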

Other observations

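Each deposited FPKM carries an interval from the authors' software, and for the 9 genes its half-width was between 37.2% and 98.2% of the value, while the SD between replicate libraries was between 1.74% and 18.46% of the mean. In 0 of the 9 genes did the mutant intervals all lie under the WT intervals. For Itgb1 the highest upper bound in mutant libraries was 112 FPKM and the lowest lower bound in WT libraries was 90.8 FPKM.

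The 9 genes together summed to 1103, 1083 and 1078 FPKM in mutant libraries, against 1621, 1668 and 1853 FPKM in WT libraries, without overlap. As a percent of all FPKM in the library this was 0.203, 0.201 and 0.165 in mutant libraries, against 0.215, 0.217 and 0.282 in WT libraries, where the highest mutant value lay just under the lowest WT value.

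The ribosomal protein gene Rpsa, whose product is also described as a laminin receptor precursor, was at 998, 1002 and 1263 FPKM in mutant libraries, against 2089, 1994 and 1703 FPKM in WT libraries. Its log2 fold change was -0.83 (limma adjusted p = 0.00217), and the call was kept in all 17 alternatives, with a smaller log2 fold change of -0.20 after quantile normalization, -0.50 with equal totals and -0.45 with equal totals apart from small RNAs. Rpsa was described after its values were seen.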
